A study of Ctenopharyngodon idella with 15 samples.

Results

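The C-type lysozyme gene of grass carp (Ctenopharyngodon idella) was followed in the gills of 15 uninfected fish. It is 1 of 40116 loci in the deposited files, listed as CI01000018_06021105_06025859.path1. The identifier gives the scaffold, start and end of the locus, a span of 4755 bases, in a genome build that the sources used here do not give. The files carry no gene symbols, and the name C-type lysozyme is the one that the study pairs with this locus. The locus was chosen by its FPKM in these 15 fish, with the question whether every salinity-treated fish lay above all untreated fish. Its differences from the control fish are therefore given as a description without a test. Tests are given only for contrasts between treated groups, which compare the same 12 treated fish that the choice looked at. The study's list of pathway genes, which holds the locus, was drawn from contrasts of symptomatic fish and higher-salinity asymptomatic fish with control. Asymptomatic fish of the lower salinity were left out of that list. The choice may therefore have raised differences that have these fish on the low side, and by how much was not tested.

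C-type lysozyme is a secreted enzyme of innate immunity that cuts the peptidoglycan of bacterial cell walls. In vertebrates it is made mainly by myeloid cells, the macrophages and granulocytes, and in many species also by mucosal surfaces. The gill is both a respiratory and a mucosal organ of fish and is in constant contact with bacteria of the water.

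The fish were 3 months old and were sampled after 30 days, the treated fish in water with added commercial sea salt and the control fish in water without it. The 5 groups of 3 fish were the 3‰ asymptomatic fish, the 3‰ symptomatic fish, the 6‰ asymptomatic fish, the 6‰ symptomatic fish and the untreated control fish (0‰). In the sample labels the salinities stand as 3% and 6%, whereas the study's text has the per mille values used here. Symptomatic fish are labelled as having an injured body, and asymptomatic and control fish as healthy. Since fish were assigned to a salinity but symptoms were observed, whatever else went with the injuries cannot be told apart from the symptoms. Salinities compared within asymptomatic or symptomatic fish are compared in fish sorted after the treatment, and this sorting cannot be told apart from salinity. The sources used here do not give the tank of each fish, so differences between tanks cannot be told apart from those between salinities. Each fish gave 1 library, and the replicates are separate fish. Expression was measured as FPKM, the fragments on a locus relative to its transcript length and to the total of the library. The FPKM of all loci summed to between 759044 and 852270 per fish, and 28848 to 30345 loci per fish were above 0. The depth in reads of each value is unknown, because FPKM holds no read count. The gill label could not be checked against marker genes, since 0 of the identifiers matched the reference gene table. Of all 105 pairs of fish, replicate 1 of the 3‰ symptomatic fish and replicate 1 of the 6‰ symptomatic fish had the most alike profiles, with a median absolute difference of 0.144 in log2(FPKM + 1), against 0.185 in the next pair.

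The lysozyme locus was low in untreated gills and higher in every treated fish. In 3‰ asymptomatic fish it had 8.53, 6.34 and 7.05 FPKM in replicates 1, 2 and 3. In 3‰ symptomatic fish it had 38.3, 15.9 and 32.4 FPKM. All 3 symptomatic fish thus lay above all 3 asymptomatic fish at this salinity, and replicate 2 was the lowest of the symptomatic fish. The 6‰ asymptomatic fish had 13.8, 23.2 and 14.8 FPKM. The 6‰ symptomatic fish had 32.5, 43.5 and 15.5 FPKM. These groups overlapped, because replicate 3 of the symptomatic fish lay below replicate 2 of the asymptomatic fish. The control fish had 2.55, 2.58 and 2.90 FPKM, all below any treated fish. In bulk gill RNA, fewer cells that carry a transcript and less transcript per cell cannot be told apart.

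**Figure D1:**
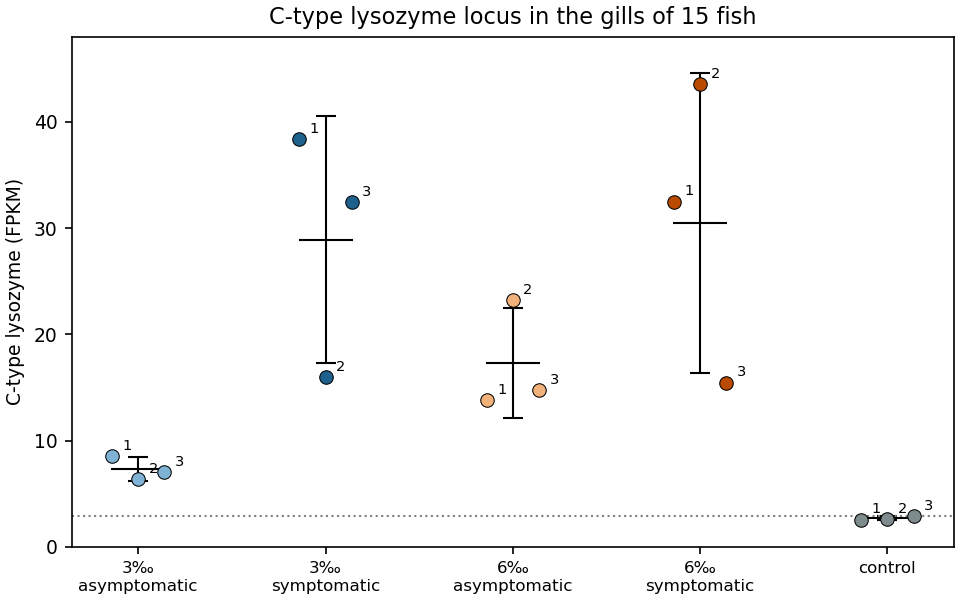
FPKM of the C-type lysozyme locus (vertical axis) in the gills of 15 fish, by group. Points are single fish with their replicate number, the horizontal bars and whiskers are the mean and SD of 3 fish, and the dotted line marks the highest control fish (2.90 FPKM), below which no treated fish fell.

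By group, lysozyme averaged 7.31 ± 1.12 FPKM in 3‰ asymptomatic fish (SD, n = 3 here and in the other groups). The mean was 28.9 ± 11.6 FPKM in 3‰ symptomatic fish and 17.3 ± 5.18 FPKM in 6‰ asymptomatic fish. The 6‰ symptomatic fish averaged 30.5 ± 14.1 FPKM, against 2.68 ± 0.193 FPKM in control fish. The ratio of a treated mean to the control mean was 2.73 in 3‰ asymptomatic fish and 10.8 in 3‰ symptomatic fish. It was 6.45 in 6‰ asymptomatic fish and 11.4 in 6‰ symptomatic fish. The control fish were the most alike and the symptomatic fish the least. The highest fish of a group had 1.35 times the lowest in 3‰ asymptomatic fish, 2.41 times in 3‰ symptomatic fish, 1.68 times in 6‰ asymptomatic fish, 2.82 times in 6‰ symptomatic fish and 1.14 times in control fish.

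All 12 of 12 treated fish lay above all 3 control fish. The lowest treated fish, replicate 2 of the 3‰ asymptomatic fish, had 6.34 FPKM, against 2.90 FPKM in the highest control fish, a ratio of 2.19. Of the 24647 loci with a mean FPKM of at least 0.5, which were those tested, 0.884% had all treated fish above all control fish, and 0.43% had all of them below. The choice of the locus used this pattern, so nothing is read from its place among them. On the scale of log2(FPKM + 1) the gap between the lowest treated and the highest control fish was 0.91, and 1 other locus had a larger gap. Over all fish lysozyme ranged between 43.5 and 2.55 FPKM, a ratio of 17.1.

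The place of lysozyme among the other loci of the same library is taken from these same FPKM values, so it largely follows them. In 3‰ asymptomatic fish 43.1% to 50.1% of the tested loci had a lower FPKM than lysozyme, and in 3‰ symptomatic fish 68.3% to 86.8%. In 6‰ asymptomatic fish the share was 63.9% to 77.4%, in 6‰ symptomatic fish 69.1% to 89.0%, and in control fish 28.4% to 29.9%. Lysozyme was thus a locus of lower rank in control gills and among the higher ranked ones in most symptomatic gills.

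In the separate contrasts with control, as a description, lysozyme was higher by 1.17 on the log2(FPKM + 1) scale in 3‰ asymptomatic fish and by 2.94 in 3‰ symptomatic fish. It was higher by 2.28 in 6‰ asymptomatic fish and by 2.98 in 6‰ symptomatic fish (SE 0.36 for each). The added 1 makes these differences smaller than the ratios of FPKM. The median difference of all tested loci from control was 0.10, 0.03, 0.08 and 0.04 in the same order of groups, and 291, 30, 74 and 23 loci had a larger difference than lysozyme. Each treated group lay wholly above the control fish, as did 14.2%, 9.59%, 18.3% and 7.16% of the tested loci. The locus was chosen by its differences from control, so nothing is read from these places or shares. The 4 contrasts share the same control fish, so they are not independent of each other.

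Ordered by mean, the groups ran as control, 3‰ asymptomatic, 6‰ asymptomatic, 3‰ symptomatic and 6‰ symptomatic fish. The lower steps of this order, up to the 6‰ asymptomatic fish, separated all fish of neighbouring groups. The upper steps did not, since the 6‰ asymptomatic fish overlapped the 3‰ symptomatic fish, whose mean was 1.67 times as high, and the symptomatic groups overlapped each other at a ratio of means of 1.05. Among the tested loci, 0.377% had 3‰ symptomatic fish above 3‰ asymptomatic fish above control fish with no overlap at either step. In the same way, 0.856% had 6‰ asymptomatic fish above 3‰ asymptomatic fish above control fish. The step from control to 3‰ asymptomatic fish belongs to the pattern used to choose the locus, so nothing is read from these shares.

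The question of the next comparison was whether lysozyme differed between fish of the same salinity with and without symptoms. At 3‰ lysozyme rose in symptomatic fish, with a mean 3.95 times that of asymptomatic fish and no overlap. The difference in log2(FPKM + 1) was 1.77 (SE 0.36, 95% interval 0.98 to 2.55). It passed the threshold used here, a fold of at least 1.5 and an unadjusted p below 0.05, as did 2.27% of the tested loci in the same direction. After Benjamini-Hochberg adjustment over all tested loci its limma p was 0.2. No locus (0%) passed an adjusted p of 0.05 in this contrast, where 1241 loci passed the unadjusted threshold. With all 3 fish of 1 group above all 3 of the other, the exact two-sided permutation test gave p = 0.1, the smallest that 3 fish against 3 allow. The same separation in this direction was seen in 7.98% of the tested loci. The low side here is the 3‰ asymptomatic group, which the study's list left out, so the choice of the locus may have raised this difference.

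At 6‰ the mean of symptomatic fish was 1.76 times that of asymptomatic fish. The difference in log2(FPKM + 1) was 0.70 (SE 0.36, 95% interval -0.08 to 1.49; limma, Benjamini-Hochberg adjusted p = 0.485) and did not pass, while 2.28% of the tested loci passed in the upward direction. The exact two-sided permutation p was 0.2. The interval includes 0 and reaches into that of the difference at 3‰. All symptomatic fish lay above all asymptomatic fish in 7.5% of the tested loci, and 0 loci passed after adjustment, while 1357 passed the unadjusted threshold. Single fish decided this call. Without replicate 3 of the 6‰ symptomatic fish, the low one, the difference was 1.12 and passed, and without replicate 2 of the 6‰ asymptomatic fish, the high one, it was 0.93 and passed. It also passed at an unchanged 0.70 without replicate 2 of the 3‰ symptomatic fish, which enters this contrast only through the shared spread.

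Over both salinities, lysozyme averaged 29.7 ± 11.6 FPKM in symptomatic fish and 12.3 ± 6.41 FPKM in asymptomatic fish (SD, n = 6 each). The lowest, median and highest symptomatic fish had 15.5, 32.4 and 43.5 FPKM, against 6.34, 11.2 and 23.2 FPKM in asymptomatic fish. The groups overlapped, and 4 of 6 symptomatic fish lay above all asymptomatic fish. The difference averaged over the salinities was 1.24 in log2(FPKM + 1) (SE 0.26, 95% interval 0.68 to 1.79; limma, Benjamini-Hochberg adjusted p = 0.0595). It passed the unadjusted threshold, as did 1.91% of the tested loci in the same direction, and missed the adjusted one, which 18 loci (0.073%) passed. The exact permutation test over all splits of 6 fish against 6, which does not take salinity into account, gave a two-sided p of 0.0108. By limma p lysozyme was the locus of rank 146 of 24647 in this contrast. The adjusted p lay between 0.0419 and 0.174 over the alternative settings and with single fish left out, and the unadjusted call held in each of them. The asymptomatic side includes the group that the study's list left out, so the choice may have raised this difference too.

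The next comparison asked whether lysozyme differed between the salinities. Among asymptomatic fish it rose at 6‰, with a mean 2.36 times that at 3‰ and no overlap between the groups. The difference in log2(FPKM + 1) was 1.11 (SE 0.36, 95% interval 0.33 to 1.89; limma, Benjamini-Hochberg adjusted p = 0.402). It passed the unadjusted threshold, as did 2.93% of the tested loci in the upward direction, and 10.8% of the tested loci had all 6‰ asymptomatic fish above all 3‰ asymptomatic fish. After adjustment 4 loci (0.0162%) passed, and lysozyme was not among them. The exact two-sided permutation p was 0.1, again the smallest possible. The low side is again the 3‰ asymptomatic group, so the choice of the locus may have raised this difference as well.

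Among symptomatic fish the salinities could not be told apart at this locus. The difference of 6‰ from 3‰ in log2(FPKM + 1) was 0.05 (SE 0.36, 95% interval -0.74 to 0.83; limma, Benjamini-Hochberg adjusted p = 0.998), and 1.39% of the tested loci passed in the upward direction and 3.66% had no overlap in it. After adjustment 1 locus (0.00406%) passed. The exact two-sided permutation p was 0.9. The interval allows either salinity to be the higher one by more than a fold of 1.5. The sign turned without replicate 2 of the 3‰ symptomatic fish (-0.32) and without replicate 1 (-0.06) or replicate 2 (-0.26) of the 6‰ symptomatic fish.

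With symptoms averaged, lysozyme had 23.9 FPKM at 6‰ and 18.1 FPKM at 3‰ (means of 6 fish each). The difference in log2(FPKM + 1) was 0.58 (SE 0.26, 95% interval 0.02 to 1.13; limma, Benjamini-Hochberg adjusted p = 0.486), which is just short of a fold of 1.5 and was not called. The upward call was made for 1.94% of the tested loci. The exact permutation test over all splits of 6 fish against 6, which does not take symptoms into account, gave p = 0.277. After adjustment 3 loci (0.0122%) passed. This contrast lies on the threshold, so it passed under several other settings and with single fish left out, the largest value being 0.78 without replicate 3 of the 6‰ symptomatic fish. The 3‰ side includes the group that the study's list left out, so the choice of the locus may have raised this difference.

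The differences between symptomatic and asymptomatic fish at the 2 salinities were compared directly by the interaction of salinity and symptoms. The difference at 6‰ minus that at 3‰ was -1.06 in log2(FPKM + 1) (SE 0.51, 95% interval -2.17 to 0.05; limma, Benjamini-Hochberg adjusted p = 1), and it did not pass, while 3% of the tested loci did in either direction. The larger difference at 3‰ is thus not shown to differ from that at 6‰. The interaction passed the unadjusted threshold without replicate 2 of the 3‰ symptomatic fish (-1.43) and without replicate 2 of the 6‰ symptomatic fish (-1.37). It also holds the 3‰ asymptomatic group, which the study's list left out, so the choice of the locus may have made it more negative.

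**Figure D2:**
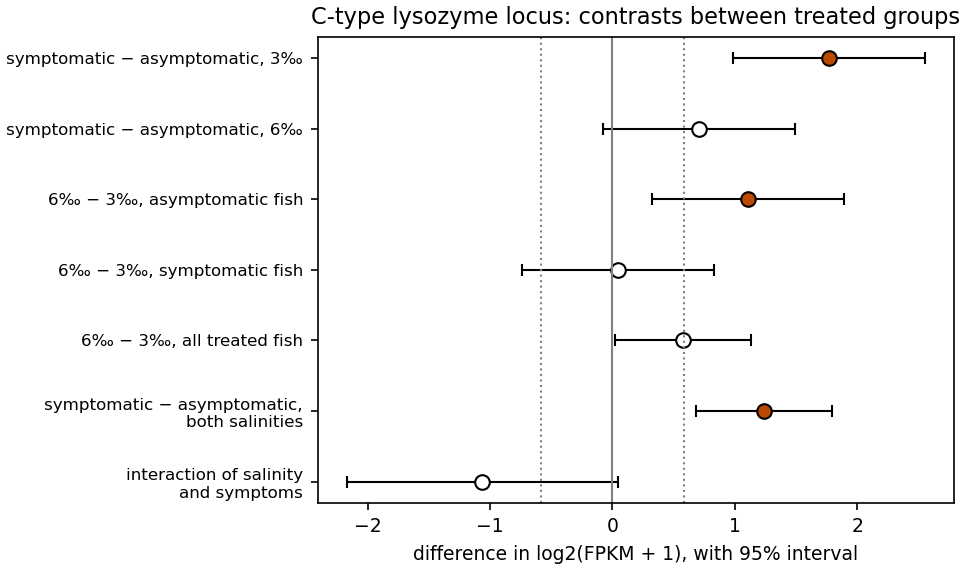
The 7 contrasts of the C-type lysozyme locus between treated groups, as differences in log2(FPKM + 1) (horizontal axis) with 95% limma intervals. Filled points passed the unadjusted threshold and open points did not, dotted lines mark a fold of 1.5, and the filled contrasts are symptomatic minus asymptomatic at 3‰ (1.77), 6‰ minus 3‰ in asymptomatic fish (1.11) and symptomatic minus asymptomatic over both salinities (1.24).

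Pooled over the 5 groups, lysozyme varied more between fish of the same group than most loci. Its residual SD over the 5 groups was 0.48 in log2(FPKM + 1), against a median of 0.30 over the tested loci, and 80.5% of them had a smaller one. The added 1 shrinks the spread of loci of low FPKM, and loci of like level were not compared apart. The spread of lysozyme was not even between groups. The SD in log2(FPKM + 1) was 0.19 in 3‰ asymptomatic fish, 0.64 in 3‰ symptomatic fish, 0.39 in 6‰ asymptomatic fish, 0.74 in 6‰ symptomatic fish and 0.07 in control fish. The limma fit uses 1 spread for all groups, so its intervals are wide for the asymptomatic fish of 3‰ and narrow for the symptomatic fish of 6‰ in comparison with their own fish.

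The loci whose pattern was most like that of lysozyme were ranked by Pearson r of log2(FPKM + 1) over the 15 fish. These r are descriptions over fish that share their groups, so loci that differ between the groups in the same order have a high r. The 8 most alike loci had r between 0.873 and 0.907, against a median r of 0.0530 over all tested loci, and 30 loci (0.122%) had an r above 0.8. None of the 8 has a name in the sources used here. The first was CI01000097_00115317_00182129, with r = 0.907 and Spearman rho = 0.854. Its level was 4.64, 3.18 and 2.73 FPKM in 3‰ asymptomatic fish, 6.59, 4.45 and 6.09 FPKM in 3‰ symptomatic fish, 4.49, 4.34 and 4.24 FPKM in 6‰ asymptomatic fish, 7.76, 5.24 and 4.52 FPKM in 6‰ symptomatic fish, and 2.59, 2.80 and 2.28 FPKM in control fish. Like lysozyme it was lowest in control fish and highest in symptomatic fish, but its 3‰ asymptomatic fish overlapped the control fish.

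The second, newGene_6005, had r = 0.905 and rho = 0.925. It had 1.18, 0.941 and 0.832 FPKM in 3‰ asymptomatic fish, 2.25, 1.37 and 2.33 FPKM in 3‰ symptomatic fish, 1.02, 1.67 and 1.98 FPKM in 6‰ asymptomatic fish, 2.36, 3.20 and 1.18 FPKM in 6‰ symptomatic fish, and 0.977, 0.600 and 0.718 FPKM in control fish. Replicate 2 of the 3‰ symptomatic fish and replicate 3 of the 6‰ symptomatic fish were the low fish of their groups in newGene_6005, as they were in lysozyme. The other members of the 8 were CI01000026_01354575_01360934 (r = 0.894), newGene_15597 (0.893), CI01000082_03468145_03468758 (0.877), CI01000016_03895417_03896392 (0.873), CI01000063_05304502_05306803 (0.873) and CI01000054_02195667_02196307 (0.873). Of these, newGene_15597 was listed at 0 in all 3 control fish and in replicate 3 of the 3‰ asymptomatic fish. It had 3.91 to 5.66 FPKM in 3‰ symptomatic fish, 4.49 to 5.87 FPKM in 6‰ asymptomatic fish and 3.12 to 6.06 FPKM in 6‰ symptomatic fish. Unlike lysozyme, its mean was higher in 6‰ asymptomatic fish (5.36 FPKM) than in 6‰ symptomatic fish (4.49 FPKM). The ratio of the highest to the lowest fish, 17.1 for lysozyme, was smaller in each of the 8 that had no fish at 0.

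**Figure D3:**
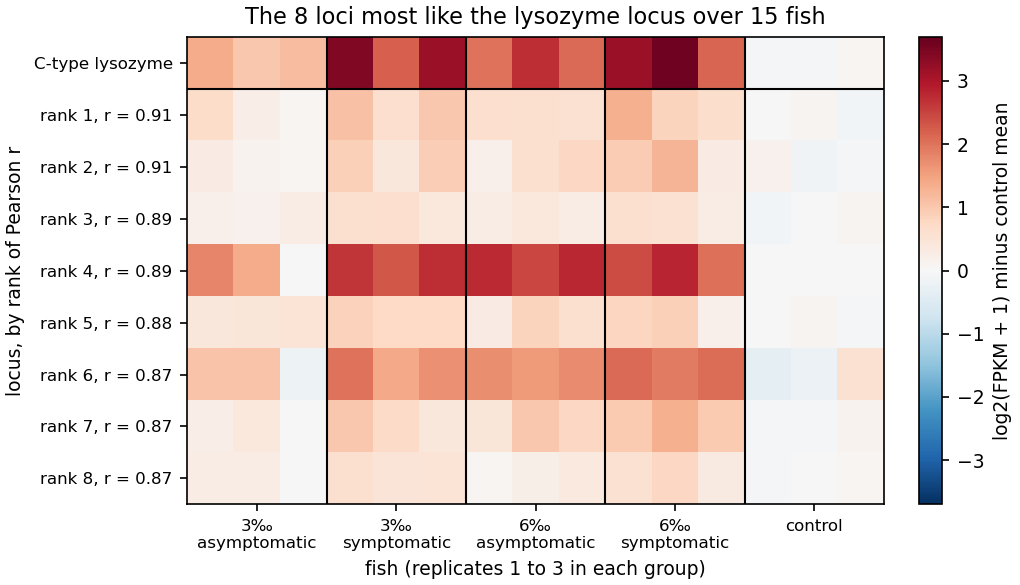
Heat map of the C-type lysozyme locus (top row) and the 8 loci most like it, ranked by Pearson r over 15 fish (rows). Columns are single fish by group, and colour gives log2(FPKM + 1) minus the mean of the control fish. All rows are darkest in the symptomatic or the 6‰ fish and pale in the control fish, and lysozyme and the locus of rank 4, newGene_15597, have the largest differences.

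Over the 12 treated fish alone the most alike loci were largely others. They were newGene_6005 (r = 0.911), CI01000028_03232374_03235527 (0.909), CI01000083_00272301_00280413 (0.892), CI01000189_04038185_04043995 (0.875) and CI01000029_09132920_09139682 (0.853), and 1 of these 5, newGene_6005, was also among the 8 over all fish. The others followed lysozyme among treated fish but not in its distance from the control fish. CI01000028_03232374_03235527, for example, averaged 66.0 FPKM in 3‰ asymptomatic fish and 96.6 FPKM in 3‰ symptomatic fish, against 76.6 FPKM in control fish.

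Lysozyme was next compared with the loci beside it on the scaffold. The scaffold holds 247 listed loci, and 0 of them overlap the lysozyme locus. The closest locus on the lower side is 1794 bases away and had 0 to 0.213 FPKM, with 7 of 15 fish at 0. The closest on the higher side is 1357 bases away and had 0 to 0.287 FPKM, with 3 fish at 0. The high lysozyme level was thus bounded on both sides by loci that were nearly silent in all groups. Of the 10 nearest loci, 5 on each side, 4 had a mean FPKM of at least 0.5. They were CI01000018_05990359_05991280 (mean 61.5 FPKM, r with lysozyme -0.22), CI01000018_05997348_06004889 (2.25 FPKM, r 0.00), CI01000018_06052815_06056229 (65.2 FPKM, r -0.33) and CI01000018_06057137_06059021 (36.7 FPKM, r -0.43). With all fish none of these 4 was called in any of the 7 limma contrasts, adjusted or not. In the 4 contrasts between pairs of treated groups alone, 14% of the tested loci were called in at least 1. With so few neighbouring loci, the absence of calls cannot be told apart from that share. Without replicate 1 of the 6‰ symptomatic fish 1 of the 4 neighbouring loci was called. Calls over all tested loci rose too when this fish was left out. For symptomatic against asymptomatic fish at 6‰ they went from 561 higher and 796 lower to 899 higher and 1940 lower. The share called in at least 1 of the 4 contrasts was not counted without this fish, so nothing is read from the added call. At an unadjusted p below 0.05 but under a fold of 1.5, 2 of the 4 neighbouring loci were lower in symptomatic than in asymptomatic fish. The share of all tested loci that met this looser criterion was not counted. Their median difference was also negative, at -0.07 at 3‰, -0.03 at 6‰ and -0.05 over both salinities. Nothing is therefore read from this count. For CI01000018_05997348_06004889 the log2 difference was -0.31 at 3‰, -0.36 at 6‰ and -0.34 over both salinities (limma, Benjamini-Hochberg adjusted p = 0.403, 0.404 and 0.109). For CI01000018_06057137_06059021 it was -0.43 at 3‰ and -0.34 over both salinities (limma, Benjamini-Hochberg adjusted p = 0.319 and 0.148).

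**Figure D4:**
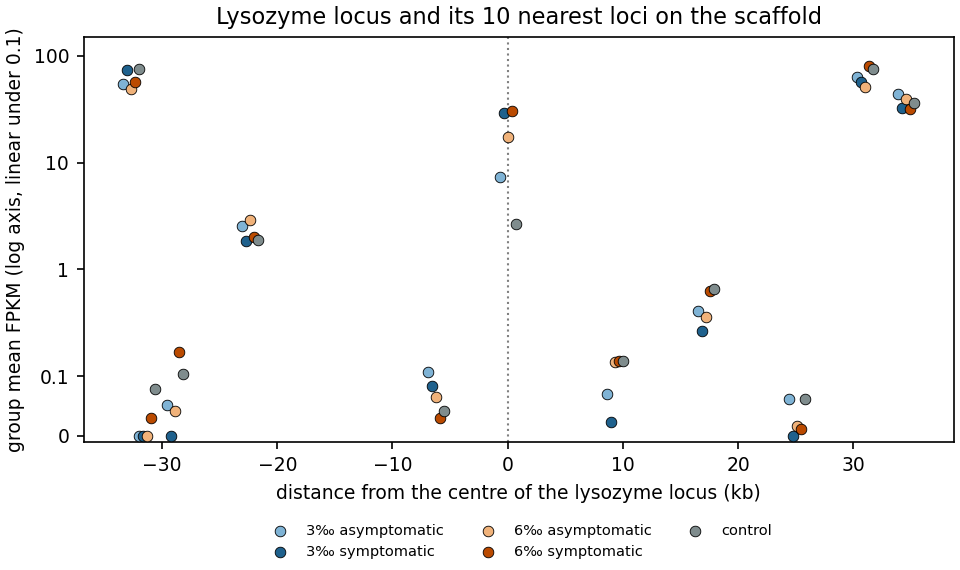
Group mean FPKM (vertical axis, logarithmic above 0.1 and linear below) of the C-type lysozyme locus at 0 and of its 10 nearest loci, by distance of their centres in kb (horizontal axis). Colours are the 5 groups, shifted sideways for legibility, and the treated means of lysozyme (7.31 to 30.5 FPKM) lie above its control mean (2.68 FPKM).

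The NOD-like receptors (NLRs) are cytosolic sensors of microbial and danger signals. They were set beside lysozyme because the study shows the lysozyme locus among genes of their signaling pathway. The list holds the 15 NLR loci that the study names by genome position. The 4 NLRC3-like loci among them were picked by the study in these same libraries, so they are not independent evidence of a direction. The other 11 had been chosen for qRT-PCR in gills of infected fish, which are not analysed here. NLRs form a large family in fish, and the reads of near-identical copies may be split between loci. All 15 passed the filter on low FPKM. In symptomatic against asymptomatic fish 2 of 15 were called higher and 0 lower at 3‰, where 5.04% of all tested loci were called, and 0 higher and 1 lower at 6‰ (5.51%). In 6‰ against 3‰ fish, 2 were higher and 1 lower among asymptomatic fish (5.22%), and 0 higher and 1 lower among symptomatic fish (2.43%). With symptoms averaged, 1 was higher and 1 lower at 6‰ (3.64%). In the interaction of salinity and symptoms, 0 were higher and 2 lower (3%). Averaged over both salinities 0 of 15 were called between symptomatic and asymptomatic fish (4.48%), a contrast in which lysozyme was called. With only 15 loci, this absence of calls cannot be told apart from that share. After Benjamini-Hochberg adjustment 0 were called by limma in any of the 7 contrasts. Over the 4 contrasts between pairs of treated groups 4 of 15 were called in at least 1, against 14% of all tested loci, and 2 of 15 without replicate 3 of the 3‰ asymptomatic fish or without replicate 1 or 2 of the 3‰ symptomatic fish. The share of all tested loci was not counted with these fish left out.

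The median difference of the 15 NLRs between symptomatic and asymptomatic fish was 0.19 at 3‰ and -0.06 at 6‰ in log2(FPKM + 1), against -0.07 and -0.03 over all tested loci and 1.77 and 0.70 for lysozyme. Between 6‰ and 3‰ asymptomatic fish it was 0.34, against -0.01 over all tested loci and 1.11 for lysozyme. In that contrast the 4 NLRC3-like loci had 0.34, 1.62, 0.90 and 0.40, all above the median of the list. The other 11 lay between -1.21 and 1.10. The median r of the NLRs with lysozyme over the 15 fish was 0.285, against 0.0530 over all tested loci. Lysozyme and the 4 NLRC3-like loci were chosen for their differences from control in these fish, which can raise an r over all 15. The r of these 4 loci was 0.46, 0.70, 0.75 and 0.44, each above the median of the list. The same choice may have raised differences with the 3‰ asymptomatic fish on the low side. Nothing is therefore read from the medians of the list.

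The 4 NLRs that were called in a contrast between treated groups followed lysozyme to different degrees. Over the 15 fish the closest was CI01000365_00436141_00445601, an NLRC3-like locus, with r = 0.749. Over the 12 treated fish alone its r was 0.423, and it was not the closest there. It had 7.85, 4.13 and 0.959 FPKM in 3‰ asymptomatic fish, 10.3, 10.5 and 9.60 FPKM in 3‰ symptomatic fish, 15.2, 2.44 and 9.44 FPKM in 6‰ asymptomatic fish, 10.4, 7.52 and 8.99 FPKM in 6‰ symptomatic fish, and 0.687, 0.771 and 1.59 FPKM in control fish. Its fish did not overlap between symptomatic and asymptomatic fish at 3‰, a difference of 1.32 in log2(FPKM + 1) (SE 0.54; limma, adjusted p = 0.372), while replicate 3 of the 3‰ asymptomatic fish lay within the control fish.

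CI01000095_03598784_03614858, also NLRC3-like, had r = 0.702 with lysozyme over the 15 fish and 0.515 over the 12 treated fish. Its level was 0.240, 1.99 and 0.114 FPKM in 3‰ asymptomatic fish, 2.87, 1.75 and 6.48 FPKM in 3‰ symptomatic fish, 6.19, 1.06 and 7.07 FPKM in 6‰ asymptomatic fish, 2.33, 5.56 and 0.320 FPKM in 6‰ symptomatic fish, and 0.0710, 0.136 and 0.184 FPKM in control fish. It was called higher in symptomatic fish at 3‰ (1.42, limma, adjusted p = 0.404) and at 6‰ in asymptomatic fish (1.62, limma, adjusted p = 0.5), the same pairwise contrasts in which lysozyme was called, although its groups overlapped in both. Its interaction of salinity and symptoms was called lower (-2.11, limma, adjusted p = 1), whereas that of lysozyme was not called. CI01117969_00000011_00000940, an NLRC3 locus, had r = 0.285. It was higher at 6‰ in asymptomatic fish by 1.10 (limma, adjusted p = 0.289) and lower in symptomatic than in asymptomatic fish at 6‰ (-0.83, limma, adjusted p = 0.38), and its interaction was called lower (-0.98, limma, adjusted p = 1). CI01000140_02095891_02110510, also NLRC3, had r = -0.11 and was lower at 6‰ in asymptomatic fish (-1.21, limma, adjusted p = 0.575) and in symptomatic fish (-1.35, limma, adjusted p = 0.933). Of these 4 loci, 1 was thus called in both pairwise contrasts of lysozyme in the same direction. That locus, CI01000095_03598784_03614858, was picked by the study from contrasts with control in these libraries, as lysozyme was. Both contrasts also have the 3‰ asymptomatic fish as their low side, and the share of all tested loci called in both was not counted. The match is therefore not independent evidence.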

How the data were processed

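Gill RNA was sequenced by the study in 15 libraries, and the FPKM of 40116 loci was deposited by the authors for each of them, scaled by transcript length and library total. The study describes an assembly of the reads without a genome (Trinity), whereas 32723 of the 40116 loci are listed by genome position. How the assembly relates to the deposited FPKM is not given. The sources used here do not give the aligner, the genome build or any filter. A line of annotation text (1 per file) was left out. Low FPKM values showed no shared step of 1 read, since the fullest bin of log2 values held 0.901% to 1.45% of the loci, so no count test was applied. Of the identifiers, 0 matched the HZGC01 gene table, and no sequence was available to print.

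The log2(FPKM + 1) of the 24647 loci with a mean FPKM of at least 0.5 was fitted with limma 3.58.1 in R 4.3.3, with the 5 groups in 1 linear model (10 residual degrees of freedom, 2.64 from the prior). A locus was called at a fold of at least 1.5 and an unadjusted p below 0.05, the threshold of the study, and p-values adjusted after Benjamini-Hochberg over all tested loci are given beside it. These p-values set each difference against the spread between fish of the same group. Exact permutation tests over fish were two-sided. Figures were drawn with matplotlib 3.10.9 in Python 3.11.15, and the fit was tested on simulated data.

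The text names the lysozyme locus, the 8 loci of highest Pearson r with it over 15 fish, the 5 over the 12 treated fish, the neighbouring loci with a mean FPKM of at least 0.5, and the NLRs called between treated groups. The locus and the lists were chosen with earlier results of these data known. The alternatives were pseudocounts of 0.1 and 0.01, median-ratio scaling, quantile normalization, no filter or a mean FPKM of at least 1, only the compared groups in the fit, a replicate block, a variance prior that follows expression, leaving out each fish, and leaving out replicate 1 of both symptomatic groups.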

Additional observations from a re-analysis of the deposited data

How the results depend on the processing

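All 12 treated fish stayed above all control fish after median-ratio scaling and after quantile normalization. Pseudocounts and the leaving out of single fish cannot undo this separation, so they are no check of it. The 3 called lysozyme contrasts kept their calls in every alternative. With single fish left out, symptomatic minus asymptomatic fish ranged between 1.53 and 2.13 at 3‰ and between 1.08 and 1.44 over both salinities, and 6‰ minus 3‰ in asymptomatic fish between 0.89 and 1.24. The uncalled contrasts were less stable. With single fish left out, symptomatic minus asymptomatic fish at 6‰ ranged between 0.40 and 1.12, 6‰ minus 3‰ between -0.32 and 0.46 in symptomatic fish (reversed at -0.32, -0.06 and -0.26) and between 0.40 and 0.78 over all treated fish, and the interaction between -1.43 and -0.65. The contrast of 6‰ with 3‰ over all treated fish passed at 0.62 and 0.63 with pseudocounts of 0.1 and 0.01, at 0.59 after quantile normalization and at 0.65 without replicate 1 of both symptomatic groups. The interaction passed at -1.08 after median-ratio scaling and at -1.09 after quantile normalization. Leaving out single fish changed the number of NLRs called in a pairwise contrast, 4 with all fish, to between 2 and 5 (2 without replicate 3 of the 3‰ asymptomatic fish or replicate 1 or 2 of the 3‰ symptomatic fish). It left the neighbouring loci at 0 to 1, with 1 called without replicate 1 of the 6‰ symptomatic fish and 1 without replicate 1 of both symptomatic groups. The share of all tested loci called in at least 1 pairwise contrast was not counted in these settings, so nothing is read from these changes. Of the 8 most alike loci, 5 were among the 8 highest by Spearman rho and 0 once group means were subtracted. Depth could not be assessed from FPKM.

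The replicate numbers were not treated as pairs, since 0 of 10 pairs of groups had all 3 same-numbered correlations of deviations over 0.1 (range -0.474 to 0.541). Between 3‰ and 6‰ symptomatic fish these were 0.541, -0.0087 and 0.507 in replicates 1, 2 and 3. The rule asks for all 3, so it cannot show that no single fish were paired. With the replicate number as a block no lysozyme call changed (symptomatic minus asymptomatic at 3‰ 1.77, limma, adjusted p = 0.286), and 4 NLRs and 0 neighbouring loci were called.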
